A study of Homo sapiens with 10 samples.

Results

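The genes described here encode the proteins of the mitochondrial ribosome, and they were taken as every gene whose platform symbol begins with MRPL or MRPS and a number and whose probe was detected (detection p-value below 0.05) on at least 5 of 10 arrays. The array held named probes for 76 such symbols, and 73 of them met the detection rule, among 9041 genes tested in all. Of the 73, 72 encode proteins and 1, MRPL20-AS1, is an antisense RNA that shares the letters of the name. The other 3 symbols were the pseudogenes MRPS31P5 and MRPL42P5 and the antisense RNA MRPL23-AS1, whose probes were detected on 0, 4 and 0 arrays. The rule used no difference between groups.

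The study measured OCI-LY10, a human line of diffuse large B-cell lymphoma of the activated B-cell type, on Illumina arrays of labelled total RNA. There were 5 arrays of cells given 1 micromolar CC-122 and 5 arrays of cells given the solvent DMSO, both for 18 hours. CC-122 (avadomide) is a small molecule whose target is cereblon, a receptor that picks substrates for ubiquitin ligation. All arrays come from 1 line, and the labels do not say whether replicates were separate cultures, so the p-values reflect no more than the scatter among these arrays, and that scatter may be technical. In bulk RNA, fewer cells of a type and less RNA per cell cannot be told apart.

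The mitochondrial ribosome sits inside the organelle and translates the few messenger RNAs that mitochondrial DNA encodes, all of which specify subunits of the respiratory chain and of ATP synthase. Its RNA comes from mitochondrial DNA, while its proteins are encoded in the nucleus, made in the cytosol and imported. MRPL proteins belong to the large subunit, which joins amino acids, and most MRPS proteins to the small subunit, which reads the message, while MRPS18A and MRPS30 sit in the large one. Some have relatives in bacterial ribosomes and others are found in mitochondria alone. Nuclear respiratory factor NRF1, the ETS-family GA-binding protein and YY1 are known regulators of such genes.

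The median raw intensity was 108.9 on CC-122 replicate 3 and lay between 73.98 and 81.6 on every other array. Between 18043 and 18844 probes were detected per array, and no pair of arrays held identical intensities. B-cell markers with a named probe, among them MS4A1, CD79A and CD79B, were detected on all 10 arrays, 6 of 6 in number, and of these CD79B was called higher and MS4A1, CD22, BLNK and CD37 lower in CC-122 (limma). Their summed normalized intensity was 8575 to 9177 on CC-122 arrays and 7617 to 8277 on DMSO arrays, and without CD79A and CD79B, the brightest probes, 731 to 946 on CC-122 arrays and 1107 to 1279 on DMSO arrays, so the sums went opposite ways. None of 9 T-cell and NK-cell markers passed the detection rule. Of 8 monocyte and macrophage markers 3 passed it (CD14, CD68 and FCGR3A), while LYZ, CSF1R and CD163 were detected on 0 arrays. Their summed intensity was 127 to 158 with CC-122 and 105 to 143 with DMSO, and none was called. The part of these markers in the results was not tested.

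Transcripts of mitochondrial ribosomal proteins changed little after CC-122, and 69 of 73 did not pass the test. By limma, with p-values adjusted after Benjamini and Hochberg across the 9041 genes, 3 were lower (MRPL24, MRPS31 and MRPL35) and 1 was higher (MRPL52) at an adjusted p below 0.05. These 4 are 5.48% of the members, where 14.8% of all genes tested were called. Lower calls made up 6.67% and higher calls 8.15% of all genes. The median log2 difference (CC-122 minus DMSO) was -0.05 over the members and -0.01 over all genes. The members ran from -0.27 to 0.23, and 9 of them were farther than 0.2 from 0.

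**Figure D1:**
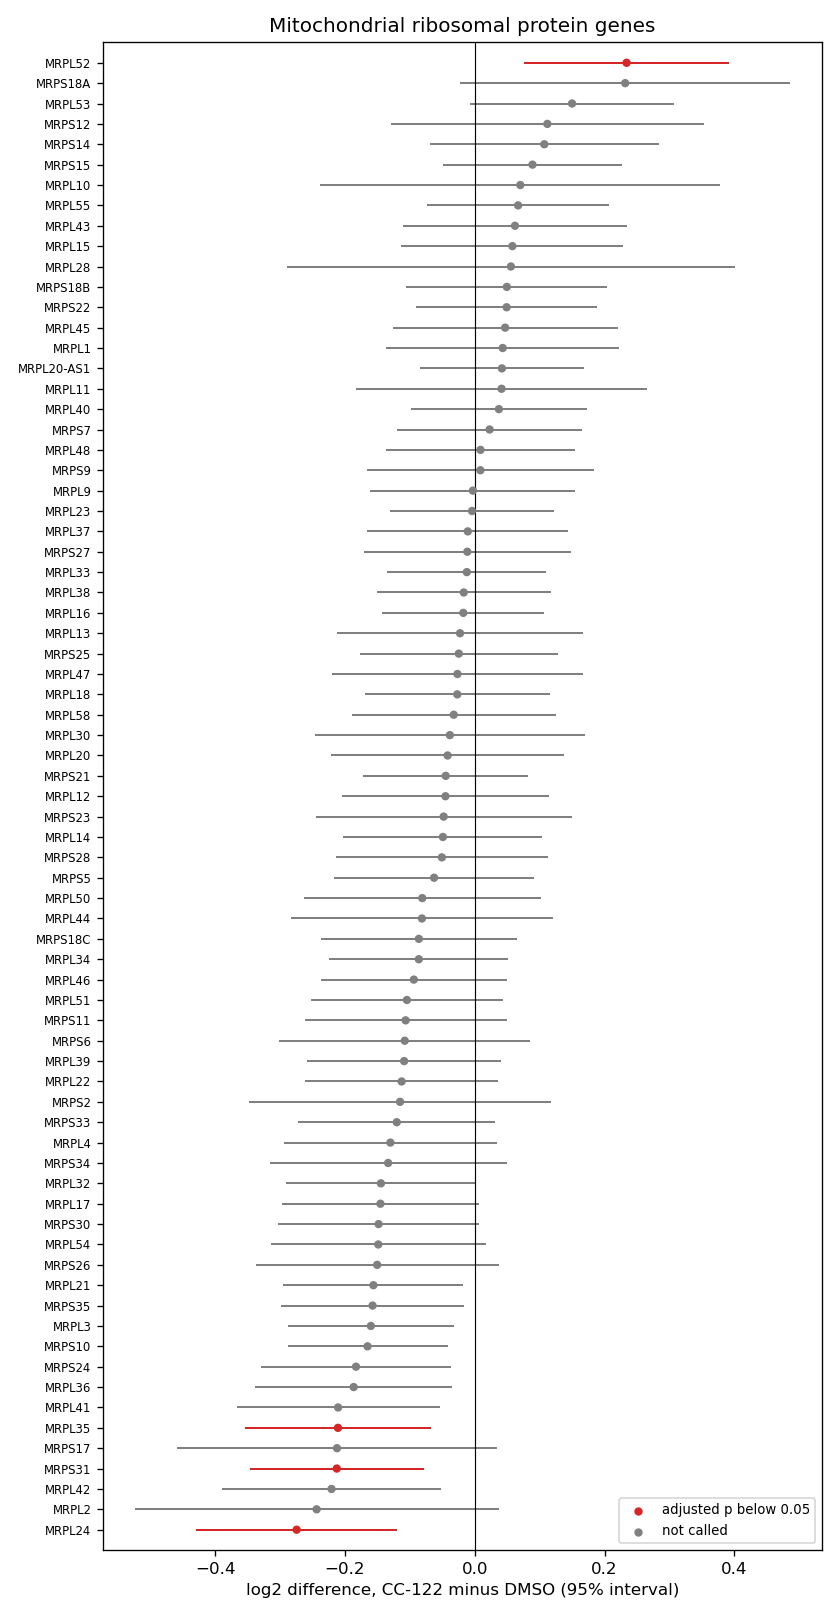
Log2 difference of each of the 73 members (CC-122 minus DMSO) with its 95% interval, from the highest to the lowest. The 4 called members are red, 1 above 0 and 3 below, and the intervals reach from -0.52 to 0.48.

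The intervals show how precisely the probe that stands for each gene was measured. For 73 of 73 members the unadjusted 95% interval lay within a 1.5-fold change in either direction (0.585 on the log2 scale), against 87.5% of all genes tested. For 41 members (56.2%) it lay within a 1.2-fold change (0.263), against 28.8% of all genes. The widest reach downward was that of MRPL2, a large-subunit protein with bacterial relatives, whose interval began at -0.52. The widest reach upward was that of MRPS18A, at 0.48, a protein of the large subunit in spite of its name. Replicate spread within groups was smaller for members, with a median residual SD of 0.10 log2 units, than for all genes tested, at 0.15. Members were also brighter, with a mean log2 intensity of 9.18 with CC-122 and 9.23 with DMSO, against 7.17 over all genes in both groups. How far brightness accounts for the narrower spread and intervals was not tested.

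**Figure D2:**
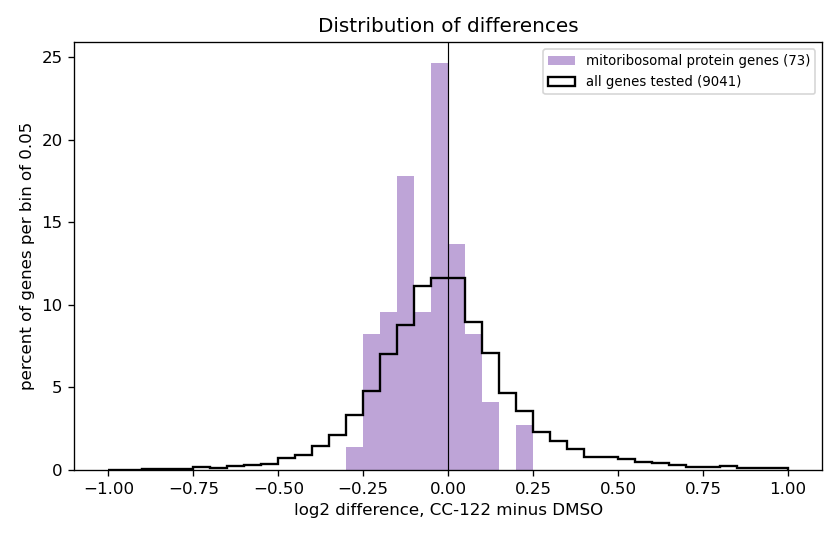
Share of genes (percent per bin of 0.05) by log2 difference, CC-122 minus DMSO, for the 73 members (filled) and the 9041 genes tested (line), of which 80 lie outside the plotted range. The members' differences all fall between -0.27 and 0.23.

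The DNA before the start sites of called members is shown because known regulators of such genes can bind before gene starts. Binding was not measured here. The sequences are the 250 bases before the start in RefSeq (GRCh38.p14), written 5′ to 3′ on the gene's strand, for the pair of called members whose start in that table is also the outer end of the gene. Capitals mark matches to CCGGAAG (the ETS motif) or AAGATGG (a YY1 motif).
MRPS31, chr13:40771191-40771440, minus strand: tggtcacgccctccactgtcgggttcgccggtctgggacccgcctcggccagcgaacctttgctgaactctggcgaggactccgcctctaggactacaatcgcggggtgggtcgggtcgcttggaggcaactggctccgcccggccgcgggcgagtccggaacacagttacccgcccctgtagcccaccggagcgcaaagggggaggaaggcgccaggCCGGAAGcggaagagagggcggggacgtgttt
MRPL52, chr14:22829637-22829886, plus strand: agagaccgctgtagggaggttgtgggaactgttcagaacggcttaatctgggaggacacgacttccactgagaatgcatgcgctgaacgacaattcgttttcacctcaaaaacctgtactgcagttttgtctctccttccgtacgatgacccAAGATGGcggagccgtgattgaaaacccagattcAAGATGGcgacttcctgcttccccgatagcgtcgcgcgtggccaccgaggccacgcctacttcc
The MRPS31 window holds 1 ETS match and the MRPL52 window holds 2 YY1 matches. The start that the table gives for MRPL24 lies inside the annotated gene, and its 250 bases hold no match to either motif.

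The lower calls came to both subunits. MRPL24 is a large-subunit protein with bacterial relatives that lies near the exit of the tunnel through which new proteins leave. Its normalized log2 intensities (probe ILMN_1695576) were 9.131, 9.082, 8.920, 9.202 and 9.004 on CC-122 arrays, against 9.328, 9.256, 9.316, 9.472 and 9.339 on DMSO arrays. Every CC-122 array was below every DMSO array. The difference was -0.27 ± 0.07 (SE), a fall to 0.827-fold (limma, adjusted p = 0.0195). The other kept MRPL24 probe, for another transcript, differed by -0.24 and was not called over all probes (limma, adjusted p = 0.186). With the mean of the probes MRPL24 stayed called (limma, adjusted p = 0.0476). The call was lost without DMSO replicate 4 (adjusted p = 0.0507) and with median scaling of the arrays (adjusted p = 0.346).

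MRPS31 is a protein of the head of the small subunit that has no bacterial relative. Its values (probe ILMN_1654552) were 9.76, 9.82, 9.89, 9.77 and 9.70 with CC-122, against 10.04, 10.07, 10.01, 9.91 and 9.98 with DMSO. The groups did not overlap, and CC-122 replicate 3 and DMSO replicate 4 were the closest pair. MRPS31 fell by 0.21 ± 0.06 on the log2 scale (SE, limma adjusted p = 0.0342). This call was lost without any of 8 of the 10 arrays, with adjusted p of at most 0.0851, and with median scaling (limma, adjusted p = 0.545).

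MRPL35 is the mitochondrial relative of a small bacterial large-subunit protein. It read 10.57, 10.54, 10.37, 10.59 and 10.50 on CC-122 arrays, against 10.73, 10.72, 10.74, 10.82 and 10.61 on DMSO arrays (probe ILMN_2341952). The groups were separate, and the difference was -0.21 ± 0.07 (SE, limma adjusted p = 0.0481). The probes of the gene did not go one way: the other 2 kept probes, both for another transcript, differed by -0.24 and 0.02, and with the mean of the probes the call was lost (adjusted p = 0.115). It was also lost without any of 8 of the 10 arrays, and with median scaling (limma, adjusted p = 0.555).

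MRPL52, found in mitochondria alone, belongs to the central protuberance, a part of the large subunit. It read 8.48, 8.41, 8.60, 8.40 and 8.55 on CC-122 arrays, against 8.35, 8.25, 8.38, 8.14 and 8.15 on DMSO arrays (probe ILMN_2311041). All CC-122 arrays were above all DMSO arrays, with CC-122 replicate 4 and DMSO replicate 3 the closest pair. MRPL52 rose by 0.23 ± 0.07 (SE), to 1.18-fold (limma, adjusted p = 0.0466). The call was lost without any of 7 of the 10 arrays, with adjusted p of at most 0.108, and with median scaling (limma, adjusted p = 0.282).

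**Figure D3:**
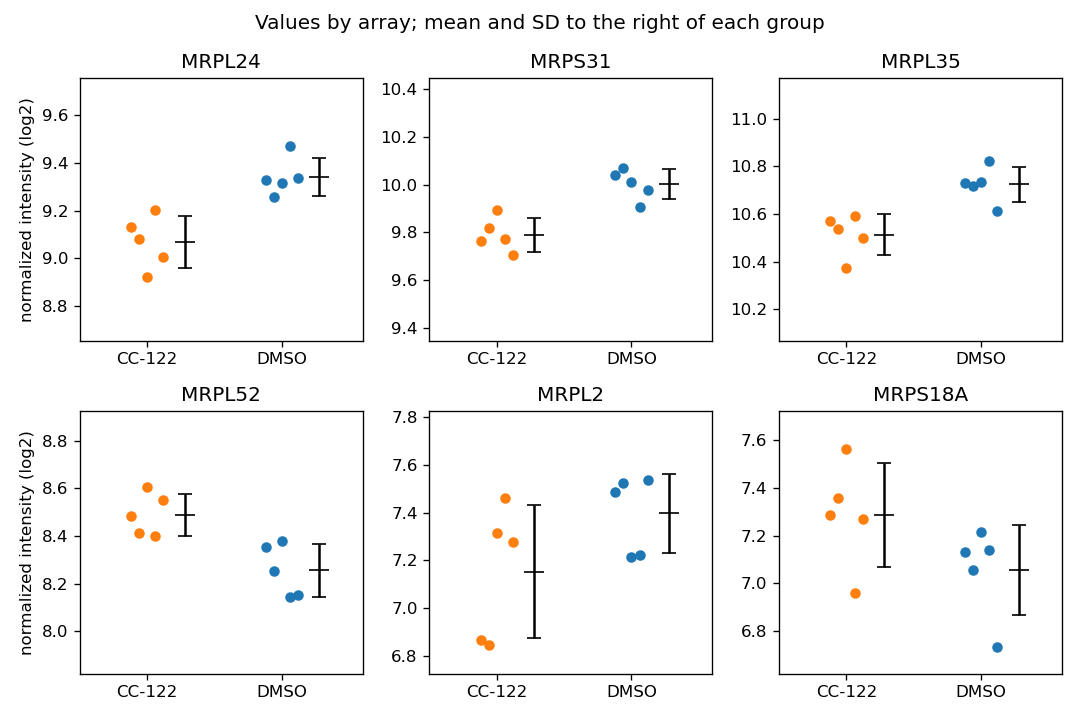
Normalized log2 intensity on each array for the 4 called members and for MRPL2 and MRPS18A, which were not called, with CC-122 left of DMSO. Points are arrays in replicate order, bars are the mean ± SD (n = 5), and every panel spans the same range; the groups are apart in the 4 called members and overlap in the other two.

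Groups that did not overlap were seen in 7 of 73 members, where 13.4% of all genes tested had separate groups. Beside the 4 called genes these were MRPS24 (-0.18), MRPS10 (-0.17) and MRPL3 (-0.16), whose proteins all have bacterial relatives, and the MRPS genes of this set are named because of this count. Their adjusted p-values from limma were 0.0911, 0.0693 and 0.0888. At an unadjusted p below 0.05 there were 12 members, all lower apart from MRPL52, where 27.6% of all genes reached that level.

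Several members differed by as much or nearly as much without a call. MRPL2 read 6.87, 6.85, 7.31, 7.46 and 7.28 with CC-122, against 7.49, 7.52, 7.21, 7.22 and 7.54 with DMSO. CC-122 replicates 1 and 2 were low and the other CC-122 arrays overlapped the DMSO arrays, at a difference of -0.24 (95% interval -0.52 to 0.04, limma adjusted p = 0.247). MRPL42, a protein found in mitochondria alone, differed by -0.22 (95% interval -0.39 to -0.05, adjusted p = 0.0777). On the other side, MRPS18A differed by 0.23 (95% interval -0.02 to 0.48, adjusted p = 0.223) and MRPL53 by 0.15 (95% interval -0.01 to 0.31, adjusted p = 0.2).

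Taken by subunit, 47 large-subunit members had 1 higher and 2 lower calls and a median of -0.04, and 25 small-subunit members had 1 lower call and a median of -0.06. Protein-coding members that carry a bacterial counterpart's name in the unified ribosomal protein nomenclature numbered 43, with 2 lower calls and a median of -0.05. The 29 with mitochondria-specific names had 1 higher and 1 lower call and the same rounded median. The numbers of differences below 0 were 34 of 47 for the large subunit and 18 of 25 for the small, 52 of all 73 (71.2%), where 53.5% of all genes tested lay below 0. With median scaling of the arrays the members' median was 0.002, beside 0.03 over all genes.

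**Figure D4:**
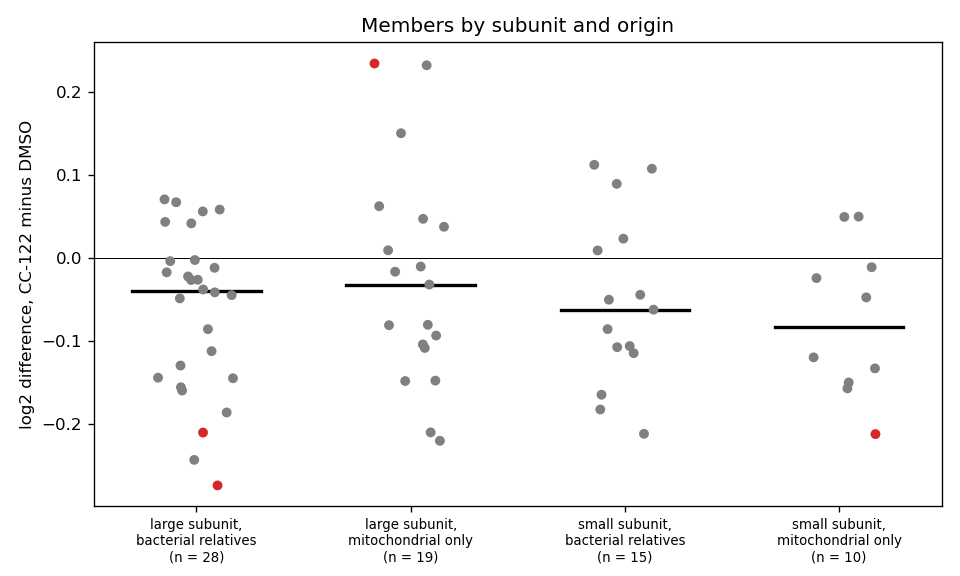
Log2 difference (CC-122 minus DMSO) of the 72 protein-coding members by subunit and by bacterial or mitochondria-specific name, with the median as a bar and called members in red. The medians lie between -0.08 and -0.03 and each set spans 0.

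Sites within the ribosome gave small sets. At the stalk that recruits translation factors, MRPL10, MRPL11 and MRPL12 differed by 0.07, 0.04 and -0.05, and none of the 3 was called. MRPL10 was detected on 2 CC-122 arrays and 3 DMSO arrays, the only member not detected on all 10. Around the exit tunnel 6 of 7 members lay below 0, with MRPL24 the 1 call and a median of -0.08. MRPL45, which helps to dock the ribosome at the inner membrane, differed by 0.05 (limma adjusted p = 0.762). Of the 8 central protuberance members 4 lay below 0, and MRPL58, a peptidyl-tRNA hydrolase built into the ribosome, differed by -0.03. In the head of the small subunit 5 of 8 lay below 0, with a median of -0.14 and MRPS31 the 1 call. Of all genes tested 53.5% lay below 0 and 14.8% were called. Differences between sites were not tested.

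Of the 4 genes with the strongest and the 4 with the weakest signals none was called, and a signal depends on the probe as well as on the RNA. MRPS21, a small-subunit protein, averaged 13.28 ± 0.02 with CC-122 and 13.32 ± 0.08 with DMSO (SD, n = 5 each). MRPL51 differed by -0.10 and MRPS18C by -0.09, with limma adjusted p of 0.353 and 0.464. Of the dim genes, MRPS12, whose protein lies at the decoding centre, averaged 5.49 ± 0.26 with CC-122 and 5.38 ± 0.07 with DMSO (SD, n = 5 each). MRPS14 differed by 0.11 and MRPL28 by 0.06. The interval for MRPL28, from -0.29 to 0.40, was the widest of all members.

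Several probes were kept for 19 members, and 6 of their 21 other probes gave differences outside the 95% interval of the probe that stood for the gene (those of MRPL3, MRPL11, MRPL21, MRPL33, MRPL35 and MRPS27). Among the 19 members, 7 had probes that differed in sign. Besides MRPL35 these were MRPL4, MRPL18, MRPL21, MRPL45, MRPS21 and MRPS27. Probes of MRPS27 gave -0.01 and 0.18, and those of MRPL21 gave -0.16 and 0.02. The median gap between probes of a gene was 0.09 log2 units, and the largest was 0.27, in MRPL35. MRPL3 had probes of 1 sign but of unlike size, -0.16 and -0.41. The second, dimmer probe had an adjusted p of 0.043 over all probes (limma). With the mean of the probes MRPL3 was called at -0.29 (limma adjusted p = 0.0188). Over all probes, limma adjusted p was 0.0339 for the probe that stood for MRPL24. It was 0.0591 for that of MRPS31, 0.079 for that of MRPL35 and 0.074 for that of MRPL52, all above 0.05.

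Averaged over members, the arrays differed by small amounts. The mean over the 73 genes was 9.20, 9.19, 9.17, 9.20 and 9.16 on CC-122 arrays, against 9.24, 9.24, 9.26, 9.25 and 9.17 on DMSO arrays. DMSO replicate 5 lay within the range of the CC-122 arrays, while the other DMSO arrays lay above it. Pairs of members mostly correlated weakly within groups. The median correlation of residuals between 2 members over the 10 arrays was 0.05, with quartiles of -0.23 and 0.35. Between members and other genes it was -0.004. The mean over members had an SD of 0.038 over DMSO arrays and 0.017 over CC-122 arrays. A median over pairs does not describe a shift that members share, such as that on DMSO replicate 5. These arrays share their scaling, and the correlations are given as a description.

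Other genes of mitochondrial translation were examined by lists, together with regulators of mitochondrial gene expression and mitochondrial proteases. Of 84 tested in all, 1 was higher, 4 were lower and 79 were not called, with a median of -0.03. Calls made up 5.95% of them, where 14.8% of all genes tested were called. The 84 include 11 regulators and proteases, described below, which held 3 of the 4 lower calls. Mitochondrial ribosomal proteins with other names held no call among 3 tested: DAP3, a GTP-binding protein of the small subunit, differed by 0.02, CHCHD1 by -0.08 and GADD45GIP1 by -0.15. Among 13 translation factors none was called, and 1 reached an unadjusted p below 0.05, where 27.6% of all genes did. TUFM, the elongation factor that brings charged transfer RNA, differed by -0.02 (95% interval -0.16 to 0.13). Of 20 assembly and ribosomal RNA handling genes 1 was higher and 1 lower (10% called).

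By the probe that stood for each gene, those calls were larger than any among the ribosomal proteins. The dimmer MRPL3 probe, which did not stand for its gene, differed by -0.41. NSUN4, a methyltransferase for ribosomal RNA of the small subunit that also takes part in joining the subunits, read 7.26, 7.37, 7.40, 7.30 and 7.18 on CC-122 arrays, against 6.80, 6.99, 6.94, 6.78 and 6.98 on DMSO arrays. It rose by 0.40 ± 0.07 on the log2 scale (SE, limma adjusted p = 0.0016), with separate groups. YBEY, an endoribonuclease of small-subunit maturation, read 8.21, 8.27, 8.22, 8.41 and 8.24 with CC-122, against 8.65, 8.75, 8.66, 8.65 and 8.64 with DMSO. It fell by 0.40 ± 0.06 (SE, adjusted p = 0.00063), again with separate groups, and lost its call under median scaling (adjusted p = 0.0952).

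Regulators of mitochondrial gene expression and mitochondrial proteases, taken as 1 list, held 3 lower calls among 11 tested (27.3%). Of all genes tested 14.8% were called, with 6.67% lower. GABPB1, the beta chain of GA-binding protein, read 7.34, 7.41, 7.33, 7.24 and 7.46 with CC-122, against 7.80, 7.78, 7.65, 7.75 and 7.68 with DMSO, and it fell by 0.38 ± 0.06 (SE, limma adjusted p = 0.00124). GABPA, its DNA-binding chain, fell by 0.24 ± 0.08 (adjusted p = 0.0499), a call lost without any of 9 of the 10 arrays. MYC, a growth-promoting transcription factor, fell by 0.49 ± 0.08 (SE, adjusted p = 0.000978), and by 0.28 without background correction. With median scaling none of the 3 was called (limma adjusted p of 0.175 for GABPB1, 0.61 for GABPA and 0.0869 for MYC). That setting called 7.52% of all genes. YY1 differed by -0.11 and ESRRA by 0.06. NRF1 was detected on 2 arrays and was not tested. POLRMT, the mitochondrial RNA polymerase, differed by 0.05 (95% interval -0.13 to 0.24).

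Promoter letters were counted for 65 members with an entry in the RefSeq table, on both strands of the 250 bases before the start. CCGGAAG, the core of ETS sites, was in 22 of them (33.8%), against 17.4% of the 7381 genes tested that had an entry. Members with it had a median log2 difference of -0.04 and the 43 without it one of -0.06. TGCGCA, the core of NRF1 sites, was in 12 (18.5%, against 12.3%), with medians of -0.11 with it and -0.04 without. AAGATGG, for YY1, was in 5 (7.7%, against 3.7%), and CACGTG, the E-box that MYC binds, was in 5 (7.7%, against 9.5%). The motifs do not contain each other, and a match is a description of the letters.

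The 4 calls depended on processing. In all 22 alternative settings the share of members called was below the share of all genes called. The number of lower calls ran from 0 with median scaling of the arrays to 10 with an intensity trend in the variance prior, and the number of higher calls was 0 or 1. With the trend 15.1% of members and 18.1% of all genes were called. Median scaling called 0% of members and 7.52% of all genes, where the main setting called 14.8% of all genes. MRPL24 stayed called in 20 of the 22 settings, MRPS31 in 11, MRPL52 in 9 and MRPL35 in 7.

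**Figure D5:**
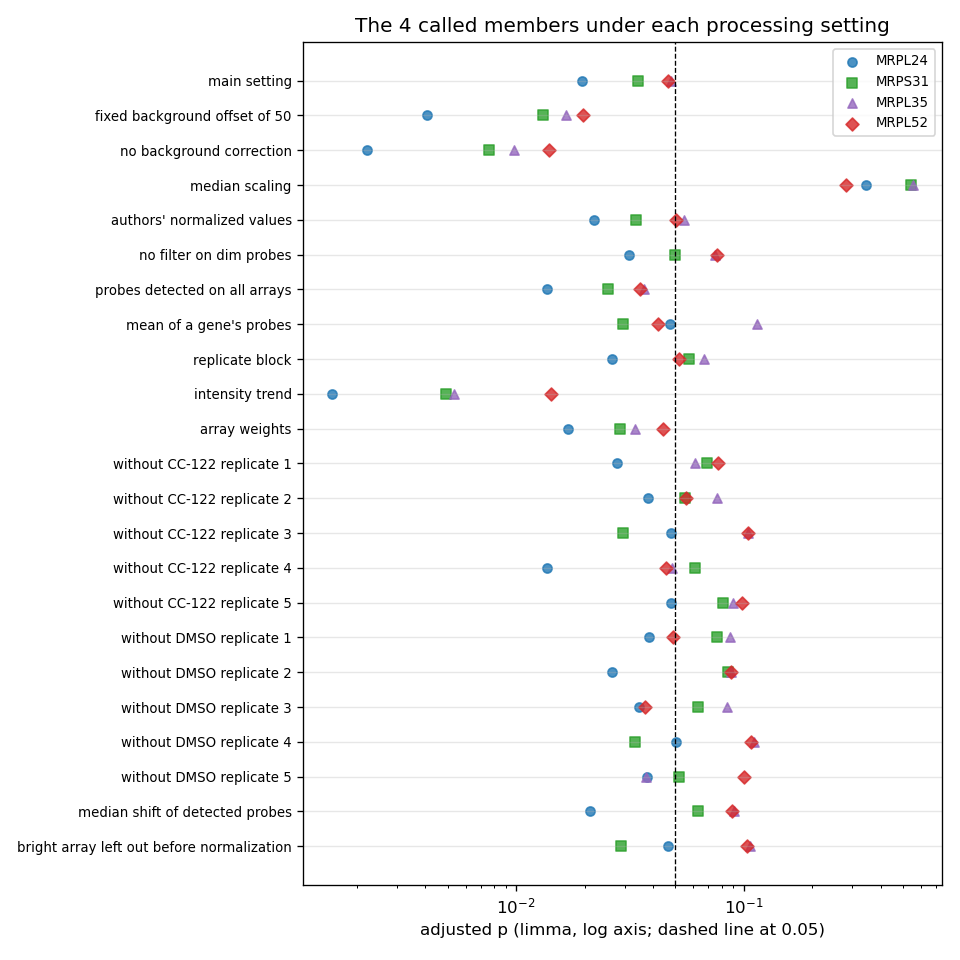
Adjusted p (limma, log axis) of the 4 called members in the main setting and in 22 alternatives, with a dashed line at 0.05. MRPL24 lies left of the line in 20 alternatives, and the other three cross it often.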

How the data were processed

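The authors deposited linear intensities with detection p-values for 48107 probes on each array, deposited as not normalized. They also deposited normalized log2 values for 34468 probes by a method not given in the sources used here. Each of those columns matched its own array best (correlation of at least 0.999933, column medians of 4.54). Both deposits thus assign columns to samples alike, and the median difference between their values and those used here was 0.04 log2 units. This match cannot check the group labels themselves. The authors' values served as an alternative. RNA was extracted and biotin-labelled by commercial kits per the labels' protocols, and array number limits the precision.

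Intensities were normalized with neqc (offset 16) of limma 3.58.1 in R 4.3.3, which takes the background from the detection p-values. Probes detected on at least 5 arrays were kept (17125), 1 probe with a missing value was dropped, and the brightest kept probe stood for its gene. Names came from the platform table, updated through gene identifiers to GRCh38.p14. The fit (lmFit, eBayes, two-sided) used all 9041 genes. How often it detects differences as small as those of the members was not tested. Lists, members and the rule for named genes (all called members, extremes of difference and brightness, members whose probes disagree, called genes of other lists, and regulators fixed by name) were chosen with earlier results of these data known. Other genes were named after their values were seen.
Alternatives changed the background correction, scaling, filter, probe summary, variance model, replicate block and arrays included. MRPS36 and TFAM were not analysed here.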

Additional observations from a re-analysis of the deposited data

Results flagged for a closer look

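In 58 groups of 5 arrays examined, 2 held an array far from the other 4, and chance marks about 1 group in 20. The mean over the mitochondrial ribosomal protein genes was 9.17 on DMSO replicate 5, against 9.24 to 9.26 on the other DMSO arrays. YBEY was at 8.75 on DMSO replicate 2, against 8.64 to 8.66 on the other DMSO arrays.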

How the results depend on the processing

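The main counts of mitochondrial ribosomal protein genes were 1 higher and 3 lower. Lower calls were 8 with a fixed background offset of 50, 9 without background correction and 10 with an intensity trend, and 0 with median scaling. Of all genes, 17.5%, 18.2%, 18.1% and 7.52% were called in these settings, in that order, against 14.8% in the main setting. Higher calls were 0 with median scaling, with the replicate block, with the authors' normalized values and with dim probes kept. Leaving out 1 array gave 0 to 1 higher and 1 to 3 lower. In alternatives chosen after seeing the data, a median shift of detected probes gave 0 higher and 1 lower, and CC-122 replicate 3 left out before normalization gave 0 higher and 2 lower. The members' median ran from -0.06 to 0.002. Among the other genes of mitochondrial translation, regulators and proteases included, 5 were called. With median scaling 1 was called, and with the intensity trend 8.

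The replicate block, in which equal numbers are paired, gave 0 higher and 2 lower (MRPL24 and MRPL42), with limma adjusted p of 0.0577 for MRPS31, 0.0672 for MRPL35 and 0.0519 for MRPL52. Residuals of equally numbered arrays correlated at -0.01 to 0.14, and 3 of 5 CC-122 arrays correlated best with their own number. Equally numbered arrays also have neighbouring array identifiers, but the labels name no shared batch or culture. Only the arrays numbered 5 passed a correlation of 0.1, at 0.14. Whether the numbers pair the arrays is thus not known. Directions changed for genes near 0, none of them called. With median scaling MRPS21 was at 0.031, MRPL18 at 0.0028, MRPS27 at 0.036 and TUFM at 0.019. With the mean of probes MRPL18 was at 0.0016 and MRPS27 at 0.082. With a median shift MRPS21 was at 0.020, and without CC-122 replicate 3 from the start MRPL10 was at -0.051. With 1 array left out MRPL28 ranged from -0.048 to 0.186, MRPL10 from -0.055 to 0.156, MRPS27 from -0.058 to 0.021, TUFM from -0.042 to 0.020 and POLRMT from -0.0042 to 0.103. Causes were not tested. Signal over background limits the dim probes, such as that of MRPL10, detected on 5 of 10 arrays.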

Other observations

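The lists of mitochondrial charging enzymes and of mitochondrial transcription and RNA processing held no call. Of 18 mitochondrial aminoacyl-tRNA synthetases and related genes tested, 0 passed by limma and 2 reached an unadjusted p below 0.05. Among all genes tested, 14.8% passed and 27.6% reached that unadjusted level. IARS2, the isoleucine enzyme, differed by -0.23 (95% interval -0.45 to -0.02) and YARS2, the tyrosine enzyme, by -0.17. Of 19 transcription and RNA processing genes 0 passed and 0 reached an unadjusted p below 0.05. These genes and those in the next sentences were picked after their values were seen.

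The proteases AFG3L2 and SPG7 form the complex that matures the MRPL32 protein. AFG3L2 differed by -0.004 (95% interval -0.19 to 0.18) and SPG7 by 0.33 (95% interval 0.09 to 0.57, limma adjusted p = 0.0687). MRPL32 itself differed by -0.14 (adjusted p = 0.182).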
